A study of Mus musculus with 4 samples.

Results

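Nr4a1, Nr4a2 and Nr4a3 are the 3 members of the NR4A family of orphan nuclear receptors, and they were taken by symbol from the 31053 genes of the count tables, where each has 1 row of its own. Their levels were read across cell types of adipose tissue and between housing at 30 °C and an acute cold challenge. All 4 libraries were 10x Genomics 3′ single-cell RNA-seq of ChAT-eGFP+ cells, which carry green fluorescent protein under the control region of Chat, the gene of the acetylcholine-synthesising enzyme. Live single cells were sorted after a warm enzymatic digestion of inguinal white adipose tissue (IWAT), a subcutaneous depot, from its stromal vascular fraction (SVF). Their donors were male ChATBAC-eGFP mice, which entered 30 °C housing (thermoneutrality) at 5 weeks of age and stayed there for 3 weeks. The mice of 2 libraries then remained at 30 °C, and those of the other 2 libraries were moved to 4 °C for 4 h, after a day at room temperature that the 30 °C mice did not have. Each library pooled 4 mice, so that n is 2 libraries per temperature. The reporter is a transgene on a bacterial artificial chromosome, so the sort followed the transgene and not Chat itself, whose level over all cells was 61.5 to 89.9 UMIs per 1000000 (CPM) in the 4 libraries, UMIs being counted mRNA molecules.

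NR4A proteins are transcription factors that bind DNA without a known hormone, and their activity is set largely by how much of them a cell makes. Their genes are immediate early genes, switched on within minutes to hours by antigen receptor and calcium signals, by cAMP through the factor CREB, and by inflammatory stimuli. In lymphocytes Nr4a1 (Nur77) is widely used as a gauge of antigen receptor signal strength, and NR4A factors help to maintain regulatory T cells and restrain activated T cells. In macrophages Nr4a1 is known as a brake on inflammatory gene expression, and in adipose tissue NR4A genes respond to adrenergic stimulation.

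In the GRCm38 build, which is the mm10 assembly named for the alignment, GENCODE M21 places Nr4a1 (ENSMUSG00000023034) at chr15:101254269-101274795 on the plus strand, Nr4a2 (ENSMUSG00000026826) at chr2:57106830-57124003 on the minus strand and Nr4a3 (ENSMUSG00000028341) at chr4:48045153-48086447 on the plus strand. The sequence before each transcription start is shown because the 3 members respond to shared signals, and because cAMP acts on such genes through the cAMP response element (CRE). Each run below is RefSeq sequence of GRCm38.p6, written 5′ to 3′ on the strand of the gene, and holds only bases that lie in no GENCODE M21 exon. Capitals mark the CRE core TGACG on either strand, which the full CRE TGACGTCA also contains, and the MEF2 core TATTTATA.
Nr4a1, chr15:101266596-101266845, plus strand: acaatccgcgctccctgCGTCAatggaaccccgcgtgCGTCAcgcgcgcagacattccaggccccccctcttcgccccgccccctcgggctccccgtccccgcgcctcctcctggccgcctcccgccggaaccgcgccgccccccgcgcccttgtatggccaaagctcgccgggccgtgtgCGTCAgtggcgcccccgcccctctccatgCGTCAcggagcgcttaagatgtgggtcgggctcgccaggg
Nr4a2, chr2:57124004-57124253, minus strand: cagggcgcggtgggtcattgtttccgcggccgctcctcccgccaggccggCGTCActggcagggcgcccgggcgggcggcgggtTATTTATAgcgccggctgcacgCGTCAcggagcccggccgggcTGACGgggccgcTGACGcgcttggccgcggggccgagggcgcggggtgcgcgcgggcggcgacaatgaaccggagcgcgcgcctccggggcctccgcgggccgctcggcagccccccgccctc
Nr4a3, chr4:48045055-48045152, plus strand: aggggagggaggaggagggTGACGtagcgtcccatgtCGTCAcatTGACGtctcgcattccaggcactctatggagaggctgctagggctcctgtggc
The runs of Nr4a1 and Nr4a2 end at the base before the RefSeq start. That of Nr4a3 ends 153 bases before it, where an exon of another transcript begins, and the Nr4a1 run lies inside the annotated span of the gene, between its exons.

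In the whole window from 250 bases before to 50 bases after the start, each of the 3 members held 4 CRE cores. Of 32817 such RefSeq windows, 20.8% held at least 1 core and 0.232% held at least 4. The windows of the members are rich in G and C (72.3%, 81.7% and 64.7% for Nr4a1, Nr4a2 and Nr4a3, against a median of 52.7%), and of the 9678 windows with at least 60% G and C, 0.558% held at least 4 cores. In Nr4a1 all 4 cores lay on the opposite strand, starting 40, 69, 213 and 233 bases before the start. The only MEF2 core was that of Nr4a2, 166 bases before its start, and 1.70% of all windows hold one. No member had the full CRE (1.79% of all windows) or the NR4A response element AAAGGTCA (1.51%) in these letters.

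**Figure D1:**
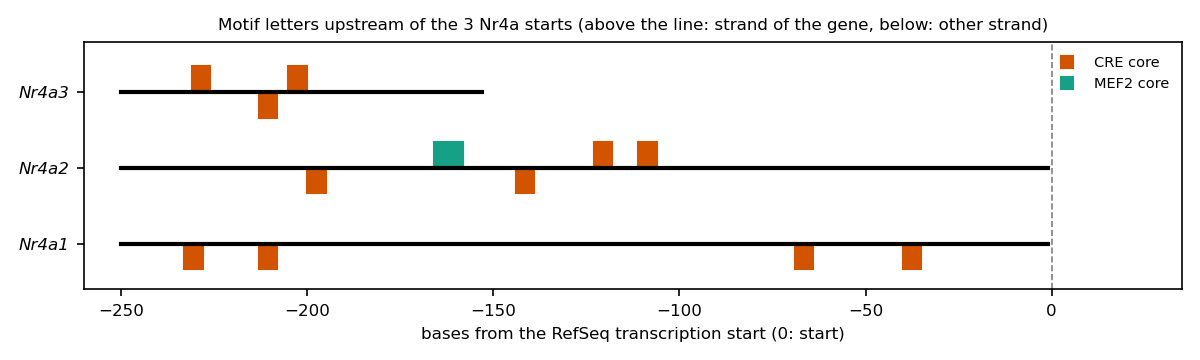
Positions of the matched motif letters in the printed upstream runs. The x axis is the distance in bases from the RefSeq transcription start, each black line is a printed run, and blocks above and below a line are matches on the strand of the gene and on the opposite strand. Nr4a1 shows 4 CRE cores, Nr4a2 4 CRE cores and 1 MEF2 core, and Nr4a3 3 CRE cores within its shorter run.

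After the filters of the study, 21253 cells remained, 10579 at 30 °C and 10674 at 4 °C, with 53423899 to 54933486 UMIs (unique molecular identifiers) per library and a median of 7520 to 8068 UMIs per cell. A cell was assigned to a lineage when at least 3 marker genes of 1 list had a UMI. This placed 88.4% to 91.1% of the cells of each library. Germinal centre B, γδT and proliferating subsets also needed 3 genes of a list. Of the remaining T cells, those with a UMI of Foxp3 were called regulatory, and else those with both Eomes and Nkg7 were Eomes+ T cells. Macrophages with at least 2 resident markers formed the resident-marker subset. The Foxp3, Eomes and resident rules stayed the same in every gate tried. The marker list of its own type summed to 5837 to 6695 CPM in B cells, 3479 to 4172 in T cells and 14797 to 16873 in macrophages. Cells gated on plasma cell markers also carried the B cell list at 2068 to 3213 CPM, and are called plasma-marker cells here. Macrophages numbered 165, 183, 443 and 165 in 30 °C replicates 1 and 2 and 4 °C replicates 1 and 2. A barcode kept in more than 1 library occurred in 102 cells (0.480%), and leaving these out moved no value of a member in B cells, T cells or macrophages by more than 4.52%.

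Nr4a1 was the most abundant member, with 17315 UMIs in kept cells, against 3308 for Nr4a2 and 2692 for Nr4a3. T cells held 33.1% of the Nr4a1 UMIs, 52.6% of those of Nr4a2 and 49.8% of those of Nr4a3, while making up 35.3% of the cells. B cells, 40.7% of the cells, held 30.3%, 4.38% and 10.8%. Macrophages held 12.8% of the Nr4a1 UMIs in 4.50% of the cells, and dendritic cells 16.2% of the Nr4a3 UMIs in 1.38% of the cells. Levels below are in CPM, which scales the UMIs of a gene by all UMIs of that cell type in that library. The 3′ protocol counts 1 tag per captured mRNA, so transcript length does not enter CPM, although mRNAs can differ in how well they are captured. Fewer expressing cells cannot be told apart from less RNA per cell in such sums.

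Among the 13 cell types tested, each member led in a different one. Nr4a1 was highest in macrophages, at 194 and 235 CPM at 30 °C against 260 and 307 CPM in the cold. Nr4a2 was highest in Eomes+ Nkg7+ T cells, a cytotoxic or natural killer-like subset, at 185 and 258 CPM in the thermoneutral and 269 and 288 CPM in the cold libraries. Nr4a3 was highest in dendritic cells, at 51.7 and 68.7 CPM at 30 °C, against 145 and 139 CPM at 4 °C. In the order of mean CPM over these 13 cell types, each of these leaders stood apart from the next: macrophages were above group 2 innate lymphoid cell (ILC2)-like cells for Nr4a1 by 0.92 log2 units (SE 0.14, edgeR quasi-likelihood adjusted p = 2.2e-07), Eomes+ T cells above dendritic cells for Nr4a2 by 1.94 (SE 0.21, adjusted p = 2.8e-10), and dendritic cells above ILC2-like cells for Nr4a3 by 1.79 (SE 0.22, adjusted p = 3.6e-09). Such contrasts were common: 59.0%, 45.6% and 49.0% of 12866 genes tested passed the same threshold (adjusted p under 0.05) in these pairs.

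Below macrophages, ILC2-like cells (mean 125 CPM), γδT cells (122 CPM), regulatory T cells (119 CPM), stromal cells (107 CPM), other T cells (79.0 CPM), Eomes+ T cells (74.8 CPM) and other B cells (70.4 CPM) followed in turn for Nr4a1, and no neighbours in that stretch differed beyond their spread. The next step that passed was from other B cells to proliferating T cells (0.49, edgeR adjusted p = 0.00028, 67.8% of all genes passing). Then came proliferating B cells to dendritic cells (1.26, edgeR adjusted p = 0.00023, 52.2% passing) and plasma-marker to germinal centre B cells (1.48, adjusted p = 5.7e-07, 40.8% passing). Fitted steps use rescaled sums. The first and last were larger than in mean CPM, which was 70.4 against 61.9 and 22.7 against 16.2. Germinal centre B cells had the lowest mean level of Nr4a1, 16.2 CPM. The fitted contrast of Eomes+ T cells and other B cells (−0.24) and that of dendritic and plasma-marker cells (−0.60) ran against the order of their mean CPM, and neither passed.

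Nr4a2 was sparse in the B lineage. After Eomes+ T cells came dendritic cells (mean 53.4 CPM), γδT cells (46.2 CPM) and ILC2-like cells (42.8 CPM), which did not differ beyond their spread as neighbours. Other T cells (15.7 CPM) were above regulatory T cells (10.1 CPM) by 0.75 log2 units (edgeR adjusted p = 0.027), in a contrast passed by 17.4% of all genes. The next step, to proliferating B cells (2.67 CPM), was 1.44, in a contrast passed by 48.3% of all genes, but those cells had 14 Nr4a2 UMIs in all and were under the count filter for Nr4a2, so no call is drawn from it. The 4 B lineage types had mean levels of 1.05 to 2.67 CPM.

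For Nr4a3, dendritic cells were followed by a plateau. ILC2-like cells (31.3 CPM), other T cells (25.2 CPM), regulatory T cells (25.0 CPM), γδT cells (24.4 CPM) and Eomes+ T cells (22.3 CPM) followed each other with no neighbours past the test. Eomes+ T cells were above proliferating T cells (10.4 CPM) by 1.30 log2 units (edgeR adjusted p = 0.0027), in a contrast passed by 36.9% of all genes. Plasma-marker cells were at 2.05 CPM and germinal centre B cells at 0.825 CPM. Macrophages, the leaders for Nr4a1 among the types tested, had only 26 Nr4a3 UMIs in 956 cells. Stromal cells had none in 119 cells and lymphatic endothelial cells none in 80 cells, which allows shares of cells with a UMI of up to 2.52% and 3.75%.

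Lymphatic endothelial cells, with 9 to 37 cells per library, were too few to test. Their Nr4a1 levels were 199 and 150 CPM at 30 °C against 295 and 483 CPM in the cold, on 113 and 109 UMIs. Their mean of 282 CPM was above that of macrophages (249 CPM), and the ranges overlapped.

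**Figure D2:**
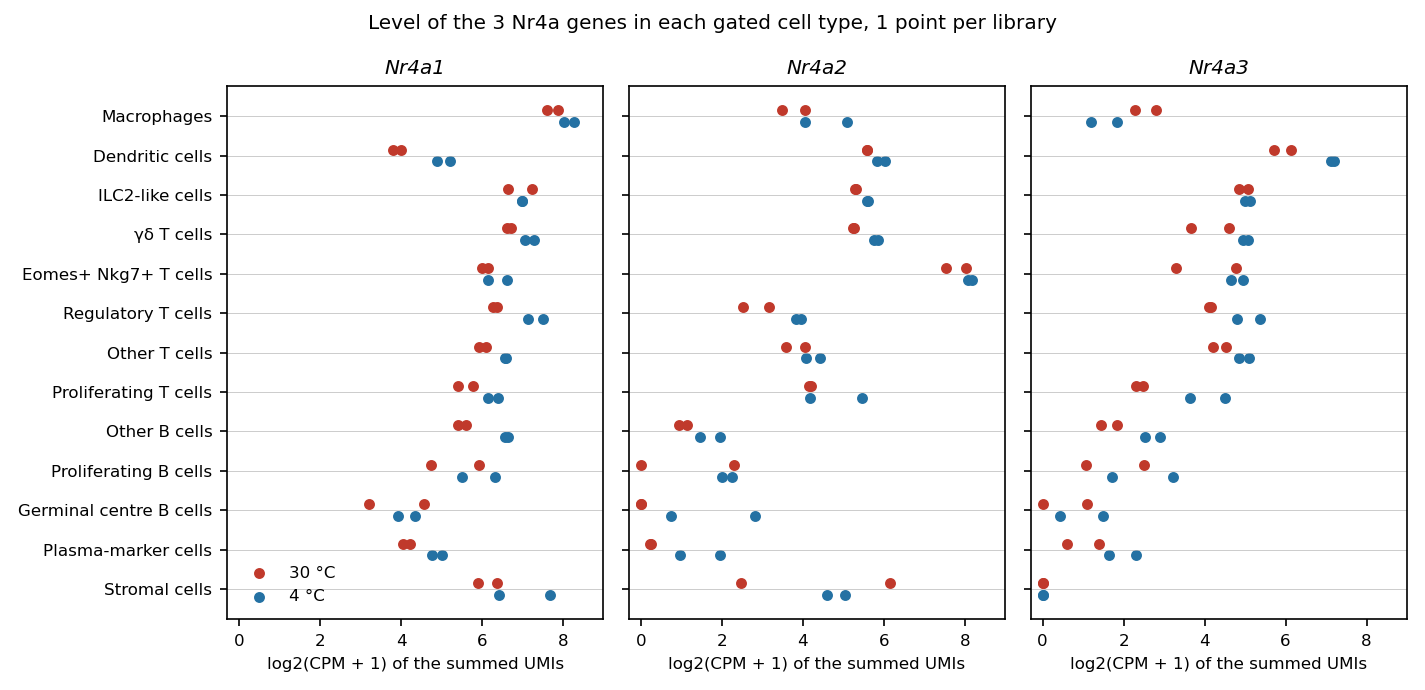
Level of the 3 Nr4a genes in 13 gated cell types. The x axis is log2(CPM + 1) of UMIs summed per library, red points are the 2 libraries at 30 °C and blue points the 2 at 4 °C. Among these types Nr4a1 peaks in macrophages (194 to 307 CPM), Nr4a2 in Eomes+ Nkg7+ T cells (185 to 288 CPM) and Nr4a3 in dendritic cells (51.7 to 145 CPM), and Nr4a3 has no UMI in stromal cells.

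The genes whose levels ran most like those of each member over the 52 sums of library and cell type differed between members. The measure was Pearson's correlation of log2(CPM + 1) among 8088 genes with a mean of at least 10 CPM, given as a description, since sums of a library share mice and depth. Closest to Nr4a1 was Ier2, another immediate early gene (0.87), and Hip1 (0.83), Pld3 (0.83) and Arhgap18 (0.82) were also among the closest. Closest to Nr4a2 were St3gal4, a sialyltransferase gene (0.84), Ptpn9 (0.80), Nck1, which encodes an adaptor of receptor signalling (0.80), Zyx (0.79) and Ppp1r9b (0.79). Closest to Nr4a3 were Aebp2 (0.88), Dusp5, which encodes a phosphatase of the kinase ERK (0.88), Samsn1 (0.88), Dock10 (0.86) and Dusp11 (0.86). Between the members themselves the correlation was 0.44 for Nr4a1 and Nr4a2, 0.19 for Nr4a1 and Nr4a3, and 0.60 for Nr4a2 and Nr4a3.

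The cold challenge was compared with thermoneutrality within each cell type. In T cells Nr4a1 was at 59.8 and 67.6 CPM in the thermoneutral and 103 and 120 CPM in the cold libraries. Nr4a3 was at 11.5 and 14.4 CPM at 30 °C, against 25.9 and 30.0 CPM at 4 °C. Both cold libraries lay above both thermoneutral libraries for either gene, with log2 fold changes of 0.74 (SE 0.09) for Nr4a1 and 1.04 (SE 0.12) for Nr4a3, and both rose (edgeR quasi-likelihood adjusted p = 0.0035 and 0.0034). Of 12090 genes tested in T cells, 4.36% were called higher at 4 °C and 5.13% lower, and both calls held under every alternative setting tried. The T cell sums also carry any shift in the mix of subsets. Proliferating T cells, at means of 47.4 CPM for Nr4a1 and 4.26 CPM for Nr4a3 at 30 °C, numbered 295 and 301 of 1792 and 1905 T cells there. At 4 °C they numbered 241 and 178 of 1987 and 1820, and the part of this shift in the changes was not tested. Nr4a2 was at 18.1 and 23.4 CPM at 30 °C and reached 25.4 and 40.4 CPM at 4 °C, giving a log2 fold change of 0.59 (SE 0.20) that did not pass (adjusted p = 0.099). It ran from 0.25 without 4 °C replicate 2 to 0.88 without 4 °C replicate 1 (adjusted p = 0.00080), and without 30 °C replicate 2 it was 0.79 (adjusted p = 0.048). When 1 library is left out, the spread comes from the pair that stays at the other temperature and the lone library is assumed to vary likewise, so a call gained in that way, here and below, rests on 1 pair.

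Regulatory T cells, the Foxp3+ cells that restrain immune responses, were the only cell type in which all 3 members passed. Their gate was a UMI of Foxp3, so such cells in which Foxp3 was missed can count among other T cells. Nr4a1 was at 76.6 and 81.3 CPM at 30 °C and reached 139 and 179 CPM at 4 °C, giving a log2 fold change of 0.96 (SE 0.11, edgeR adjusted p = 0.00038). Nr4a2 rose from 4.75 and 7.92 CPM to 14.5 and 13.1 CPM (1.10, SE 0.24, adjusted p = 0.024), and Nr4a3 from 16.3 and 16.9 CPM to 26.9 and 40.0 CPM (0.96, SE 0.19, adjusted p = 0.013). In these cells 2.14% of 10265 genes were called higher and 2.64% lower. The Nr4a2 call rested on 51 UMIs at 30 °C and 144 at 4 °C, and it was lost without 30 °C replicate 1 (0.76, adjusted p = 0.10) or without 4 °C replicate 1 (1.02, adjusted p = 0.096).

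Fewer members passed in each of the other T cell subsets, but differences in change between the subsets were not tested. Cell numbers per library also differed, at 636 to 754 regulatory T cells against 27 to 125 γδT cells and 53 to 82 Eomes+ T cells. In other T cells Nr4a1 rose from 59.99 and 67.8 CPM to 93.1 and 94.9 CPM (0.49, SE 0.09, edgeR adjusted p = 0.0090, 1.42% of genes called higher), and this call was lost without 30 °C replicate 1 (0.42, adjusted p = 0.053). Nr4a3 did not pass there, at 17.5 and 22.0 CPM against 28.0 and 33.3 CPM (0.56, adjusted p = 0.070), although it passed with total UMIs (0.62, adjusted p = 0.049), with no filter on low counts (0.58), with a gate of 2 markers (0.68), with the replicate number as a block (0.57) and without cells that share a barcode (0.64). In proliferating T cells, where 3.46% of genes were called higher, Nr4a3 went from 3.97 and 4.54 CPM to 21.5 and 11.4 CPM (1.89, SE 0.31, adjusted p = 0.0014), the largest fitted change of a member in the cell types tested, on 52 and 149 UMIs. Its call was lost without any 1 of 30 °C replicate 1, 30 °C replicate 2 and 4 °C replicate 1 (1.80, 1.99 and 1.28, adjusted p = 0.094, 0.068 and 0.079), and with all libraries kept it was lost with a gate of 2 markers (1.30, adjusted p = 0.077) and with thinned cells (1.83, adjusted p = 0.081). Nr4a1 in proliferating T cells passed with 0.58 (SE 0.13, adjusted p = 0.010), and was lost without 30 °C replicate 1 (0.40), 4 °C replicate 1 (0.68) or 4 °C replicate 2 (0.48). That call was also lost with DESeq2 (0.59, adjusted p = 0.051), without the upper limit on genes per cell (0.29), with a gate of 2 markers (0.43) and with thinned cells (0.52). In γδT cells no member passed: Nr4a1 was at 96.9 and 103 CPM against 155 and 132 CPM (0.49, adjusted p = 0.14), Nr4a2 at 37.3 and 36.7 CPM against 57.2 and 53.4 CPM (0.53, adjusted p = 0.34) and Nr4a3 at 11.7 and 23.2 CPM against 29.8 and 32.9 CPM (0.69, adjusted p = 0.44). In Eomes+ T cells, the leaders for Nr4a2, no member passed, and the fitted change of Nr4a2 was 0.26 (SE 0.20, adjusted p = 0.77).

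In B cells, where Nr4a2 and Nr4a3 were sparse, Nr4a1 was at 40.0 and 41.2 CPM at 30 °C against 88.3 and 82.8 CPM in the cold. It rose by 0.98 log2 units (SE 0.07, edgeR adjusted p = 0.0034), while 0.809% of 11737 genes were called higher and 1.34% lower. The call was lost without 4 °C replicate 1 (0.93, adjusted p = 0.072). Nr4a3 was at 1.66 and 2.27 CPM in the thermoneutral and 5.71 and 4.38 CPM in the cold libraries (1.26, SE 0.24, adjusted p = 0.061), a change that passed without 30 °C replicate 1 (1.06, adjusted p = 0.017) or without 30 °C replicate 2 (1.47, adjusted p = 0.011). Nr4a2, with 42 and 103 UMIs, was at 1.10 and 0.947 CPM against 2.26 and 2.60 CPM (1.15, SE 0.27, adjusted p = 0.095), and passed without 30 °C replicate 1 (1.28, adjusted p = 0.039). Among other B cells, outside the germinal centre and proliferating gates, Nr4a1 (1.02, SE 0.07, adjusted p = 2.4e-05) and Nr4a3 (1.27, SE 0.25, adjusted p = 0.0094) both rose, with 6.75% of genes called higher. In germinal centre B cells Nr4a1 was at 22.7 and 8.19 CPM against 19.5 and 14.2 CPM, and the groups overlapped.

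In macrophages, the leaders for Nr4a1 among the 13 cell types tested, the cold libraries lay above the thermoneutral ones but the fitted change of 0.33 (SE 0.13) did not pass (edgeR adjusted p = 0.11), where 8.19% of 9302 genes were called higher and 7.97% lower. With each cell thinned to 3000 UMIs, which gives every cell the same weight, it was 0.69 (adjusted p = 0.0019). Within macrophages that carried resident markers Nr4a1 passed, at 184 and 231 CPM against 268 and 293 CPM (0.39, SE 0.12, adjusted p = 0.040, 9.73% of genes called higher), and that call was lost without 30 °C replicate 1 (0.22, adjusted p = 0.34) or without 4 °C replicate 2 (0.33, adjusted p = 0.097), and with all libraries kept it was lost with DESeq2 (0.39, adjusted p = 0.23) and with a gate of 2 markers (0.53, adjusted p = 0.053). Nr4a2 in macrophages was at 10.2 and 15.5 CPM against 15.7 and 33.2 CPM (0.71, SE 0.40, adjusted p = 0.27), ranging from 0.22 without 4 °C replicate 2 to 1.30 without 4 °C replicate 1 (adjusted p = 0.027). Nr4a3 was at 5.99 and 3.87 CPM at 30 °C, against 1.31 and 2.60 CPM at 4 °C, on 17 and 9 UMIs that were too few to be tested within macrophages alone. In those with resident markers its values overlapped, at 2.10 and 3.31 CPM against 1.32 and 2.57 CPM. In the other macrophages it was at 29.1 and 6.69 CPM against 1.27 and 2.68 CPM, on 9 and 2 UMIs. At 3000 UMIs per cell Nr4a3 was found in 0.296% of macrophages at 30 °C and 0.590% at 4 °C, on 4 positive cells of 870. With all UMIs of each cell the mean shares ran the other way, at 3.73% and 1.78%, without overlap.

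In dendritic cells, the leaders for Nr4a3, it rose. The log2 fold change was 1.24 (SE 0.19, edgeR adjusted p = 0.0090), on 85 UMIs at 30 °C and 350 at 4 °C, and 0.977% of 7063 genes were called higher and 0.368% lower. The call was lost without 30 °C replicate 2 (1.46, adjusted p = 0.11) and with a gate of 2 markers (1.13, adjusted p = 0.056). In the same cells Nr4a1 was low, at 12.9 and 15.1 CPM against 35.9 and 28.7 CPM (1.19, SE 0.33, adjusted p = 0.13), and Nr4a2 was at 47.0 and 46.9 CPM against 64.1 and 55.6 CPM (0.33, SE 0.22, adjusted p = 0.59).

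In ILC2-like cells no member passed. Nr4a1 was at 98.7 and 149 CPM at 30 °C against 127 and 127 CPM in the cold (−0.01, SE 0.16, edgeR adjusted p = 0.99), Nr4a2 at 38.4 and 38.7 CPM against 47.6 and 46.6 CPM (0.23, SE 0.23, adjusted p = 0.68), and Nr4a3 at 32.9 and 27.7 CPM against 33.8 and 30.8 CPM (0.03, SE 0.27, adjusted p = 0.97). In these cells 2.19% of 7361 genes were called higher and 3.07% lower. In CPM the 2 thermoneutral libraries bracketed both cold libraries for Nr4a1, those for Nr4a3 overlapped the cold ones, and those for Nr4a2 lay below both cold ones. At 3000 UMIs per cell, however, Nr4a1 was found in 21.4% and 15.6% of ILC2-like cells at 30 °C and in 26.1% and 26.9% at 4 °C, without overlap, and among cells with Nr4a1 its mean count was 2.00 against 1.49 UMIs.

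**Figure D3:**
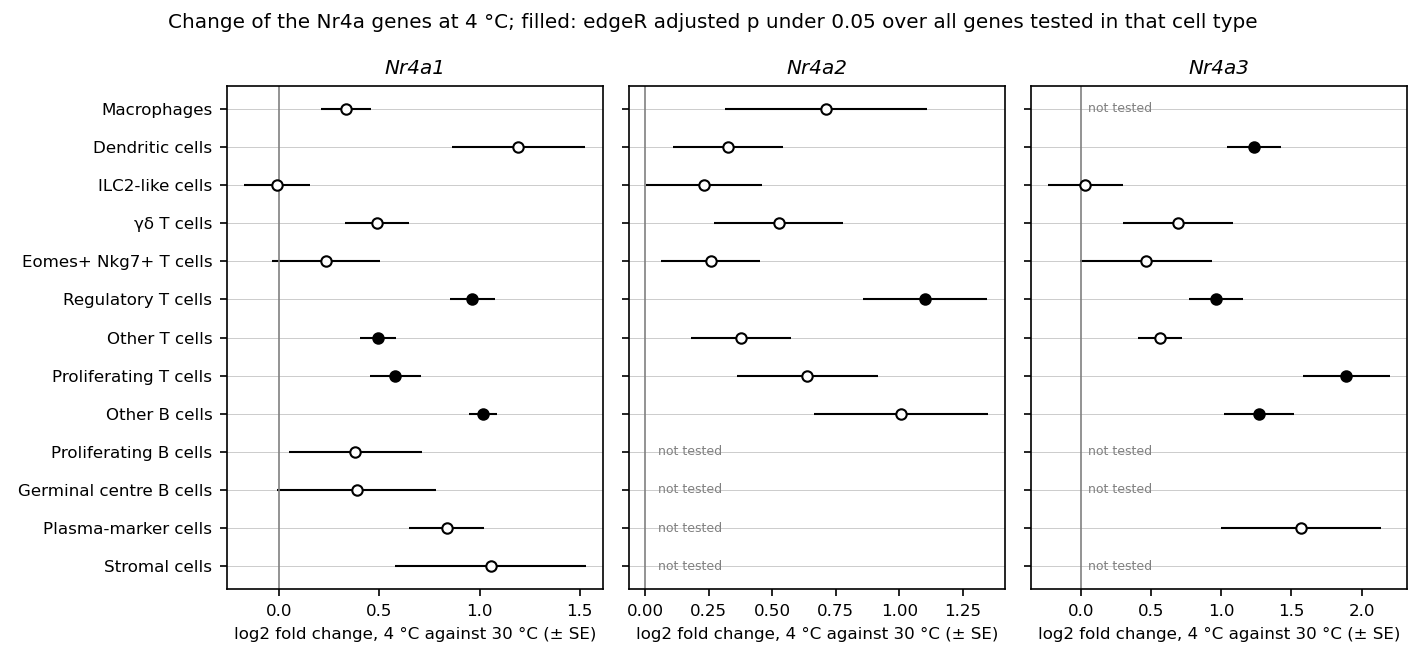
Fitted log2 fold change at 4 °C against 30 °C of each Nr4a gene in each gated cell type, with its SE. Filled points passed an edgeR adjusted p under 0.05 over all genes tested in that cell type, open points did not, and "not tested" marks genes under the count filter. Nr4a1 passed in 4 of 13 cell types, Nr4a2 in 1 of 9 tested and Nr4a3 in 4 of 9 tested, all with higher values at 4 °C.

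No member passed in the lower direction in any of the 13 cell types. Over all kept cells together, Nr4a1 (0.80, SE 0.07, edgeR adjusted p = 0.040) and Nr4a3 (1.07, SE 0.10, adjusted p = 0.041) were 2 of the 22 genes called higher out of 15076 (0.146%), and Nr4a2 was not (0.67, SE 0.10, adjusted p = 0.086). These sums also carry any shift in the mix of cells, and both calls were lost without 30 °C replicate 1 (0.73 and 0.98) or without 30 °C replicate 2 (0.88 and 1.17).

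An interaction term asked, in 4 pairs of cell types and for the 3 members, whether the change itself differed. The change of Nr4a1 was smaller in ILC2-like cells than in T cells by 0.74 log2 units (a difference of −0.74, SE 0.17, edgeR adjusted p = 0.0018, 2.76% of genes passing) and smaller in macrophages than in B cells (−0.62, SE 0.16, adjusted p = 0.046, 4.64% of genes passing). Between macrophages and T cells the difference for Nr4a1 did not pass (−0.36, SE 0.12, edgeR adjusted p = 0.065). For Nr4a3 the change was lower in ILC2-like cells than in T cells (−1.02, SE 0.31, adjusted p = 0.045). The T cell sums in these contrasts also carry the shift in subsets given above. In the ILC2-like cells of these contrasts the T cell marker list summed to 351 to 547 CPM, against 3479 to 4172 CPM in T cells. Most of this was Cd3g in 30 °C replicate 1, at 358 CPM, where Cd3d was at 15.4, Cd3e at 1.10 and Trac at 40.6 CPM. The fitted differences for Nr4a3 were −2.55 (SE 0.60) between macrophages and T cells, where 7.63% of genes passed, and −2.85 (SE 0.72) between macrophages and B cells. Nr4a3 was under the count filter in macrophages alone, with 17 and 9 UMIs, and entered these 2 fits only through the other cell type, so no call is drawn from them. No difference between B cells and T cells passed in the change of Nr4a1 (0.23, SE 0.12), Nr4a2 (0.54, SE 0.29) or Nr4a3 (0.20, SE 0.25), where 0.716% of genes passed, and no interaction of Nr4a2 passed. Each of these 3 calls was lost without some single library. For Nr4a1 these were 30 °C replicate 2 (−0.48) and 4 °C replicate 2 (−0.66) in ILC2-like against T cells, and 30 °C replicate 2 (−0.46) and 4 °C replicate 1 (−0.45) in macrophages against B cells. For Nr4a3 in ILC2-like against T cells the difference was −0.69, −1.15 or −0.89 without 30 °C replicate 1, 4 °C replicate 1 or 4 °C replicate 2.

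The sums could rise through more cells with a transcript or more transcripts per cell. At 3000 UMIs per cell, Nr4a1 was found in 9.55% and 10.5% of B cells at 30 °C and in 20.8% and 19.1% at 4 °C. In T cells the shares were 12.8% and 13.8% against 20.7% and 21.1%, and in macrophages 29.4% and 31.4% against 37.9% and 40.8%. The groups did not overlap in these 3 types, although 2 libraries against 2 cannot give a two-sided exact permutation p below 0.33. Among cells with Nr4a1, the mean number of its UMIs was 1.23 against 1.41 in B cells and 1.54 against 1.80 in T cells. With all UMIs of each cell, the mean shares were 21.5% against 38.3% in B cells, 24.5% against 35.4% in T cells and 46.3% against 50.4% in macrophages, where they overlapped between the libraries.

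Shares of the rarer members did not all lie the same way. Nr4a3 was found in 3.03% and 3.12% of thinned T cells at 30 °C and in 4.92% and 6.34% at 4 °C, and in 12.1% and 13.04% of dendritic cells against 19.6% and 26.2%. In dendritic cells with Nr4a3, its mean count went from 1.21 to 2.13 UMIs. The mean share with Nr4a3 was 10.2% at 30 °C and 8.12% at 4 °C in ILC2-like cells, 4.87% and 4.10% in γδT cells, and 5.47% and 5.24% in Eomes+ T cells. At 6000 UMIs per cell it stayed lower in the cold in ILC2-like cells, at 17.8% against 13.3%. In γδT cells (7.30% against 16.2%) and Eomes+ T cells (3.93% against 7.34%) it was then higher in the cold, so no direction is drawn for these. Nr4a2 was found in 24.5% and 33.9% of Eomes+ T cells against 37.3% and 40.7%, with 95% exact binomial intervals of 13.8% to 38.3% for the lowest and 29.9% to 52.2% for the highest. At 6000 UMIs per cell the mean shares were 48.9% and 51.2%, and the libraries overlapped. In B cells, with a median of 8021 UMIs before thinning, the share with Nr4a2 was only 0.290% over all libraries, against 4.21% in T cells with a median of 6540.5 UMIs. Such intervals cover counting error only.

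**Figure D4:**
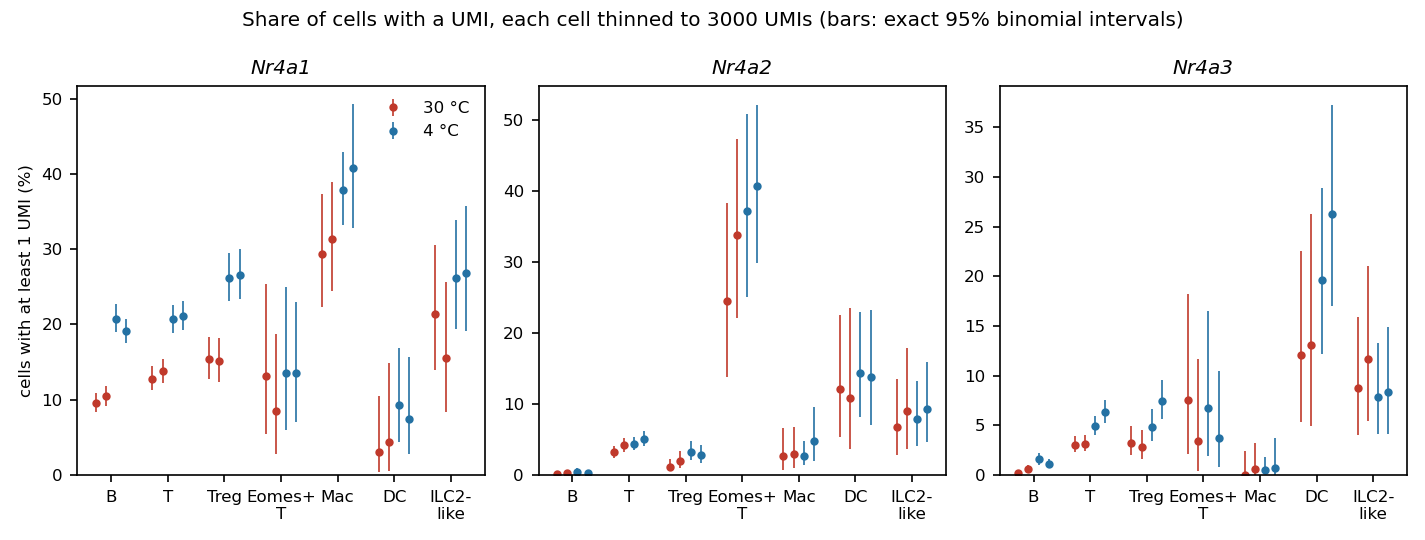
Share of cells with at least 1 UMI of each Nr4a gene after thinning each cell to 3000 UMIs, in percent, per library. Red is 30 °C, blue is 4 °C, bars are exact 95% binomial intervals, and Treg, Mac and DC stand for regulatory T cells, macrophages and dendritic cells. Nr4a1 shares in B cells lie at 9.55% and 10.5% against 20.8% and 19.1%, without overlap.

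Several pairs of members were found in the same cells more often than the product of their shares, though not all of them in every library. In 7308 thinned T cells, 154 had both Nr4a1 and Nr4a3, where the product of their shares within each library came to 58.3. Nr4a1 and Nr4a2 were found together in 106 T cells (product 54.4), and Nr4a2 and Nr4a3 in 36 (product 14.0), each above the product in 4 of 4 libraries. These products pool T cell subsets that differ in level. Within subsets, Nr4a2 and Nr4a3 were found together in 13 regulatory T cells (product 3.26) and 7 other T cells (product 4.13), each above it in 2 of 4 libraries. In Eomes+ T cells 10 had both (product 4.37), above it in 4 of 4. In 8613 B cells 30 had Nr4a1 and Nr4a3 (product 12.8), and in 289 dendritic cells 13 had Nr4a2 and Nr4a3 (product 7.25). Other pairs in these types were less clear. Only 3 dendritic cells had Nr4a1 and Nr4a2 (product 2.58) and 1 B cell had Nr4a2 and Nr4a3 (product 0.265), each above the product in 1 of 4 libraries. Transcripts were concentrated in few cells: in macrophages the top 10% of cells held 51.3% to 59.1% of the Nr4a1 UMIs, with 35 UMIs in the highest cell, and the highest Eomes+ T cell had 26 Nr4a2 UMIs.

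Other immediate early genes were read beside the members, since warm digestion can also switch such genes on, and its part in these values was not tested. Of 22 listed genes, 7 passed as higher and 1 as lower in T cells, with a median log2 fold change of 0.18, against 0.0032 over all genes tested. All list counts here and below stand beside the shares of all genes called higher and lower, 4.36% and 5.13% in T cells, 0.809% and 1.34% in B cells, 8.19% and 7.97% in macrophages, 2.14% and 2.64% in regulatory T cells, 0.977% and 0.368% in dendritic cells and 2.19% and 3.07% in ILC2-like cells. The EGR genes, which encode zinc finger factors induced by antigen receptor signals, led: Egr3 (1.01), Egr2 (0.77) and Egr1 (0.49) rose, and Klf2, a gene of quiescent T cells, fell by 0.53 on the log2 scale (edgeR adjusted p = 0.0090, 0.011, 0.017 and 0.010). Egr3 was at 10.0 and 14.9 CPM in the thermoneutral and 25.3 and 27.2 CPM in the cold libraries. Egr1 lost its call without 30 °C replicate 1 (0.48, adjusted p = 0.063). Fos, a general gene of activation and stress, was at 106 and 112 CPM against 138 and 118 CPM in T cells (0.17, adjusted p = 0.25), and Jun at 39.3 and 56.4 CPM against 35.2 and 53.7 CPM (−0.18, adjusted p = 0.61).

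In B cells 2 of the 22 genes passed as higher, Egr2 (1.15) and Egr3 (1.11), and Dusp1, which encodes a MAP kinase phosphatase, fell by 0.83 on the log2 scale (edgeR adjusted p = 0.016, 0.0026 and 0.013). Egr3 was at 45.5 and 44.0 CPM at 30 °C, against 102 and 104 CPM at 4 °C. All 3 calls were lost without 4 °C replicate 1 (Egr2 1.22, Egr3 1.11 and Dusp1 −0.92, adjusted p = 0.15, 0.057 and 0.10), as was that of Nr4a1, and those of Egr2 and Dusp1 also without 4 °C replicate 2 (1.08 and −0.73). Fos was at 86.9 and 87.6 CPM against 90.9 and 144 CPM in B cells and did not pass (0.34, adjusted p = 0.41). The list median was 0.05.

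Macrophages had 6 higher and 2 lower of 21 tested. Egr2 (2.19) and Atf3, a stress-response factor gene (1.51), rose and Dusp1 fell by 0.72 on the log2 scale (edgeR adjusted p = 0.0014, 0.00043 and 0.00039). Egr2 was at 8.99 and 19.4 CPM at 30 °C against 79.1 and 51.4 CPM in the cold. Egr3 passed with 2.28 on 83 UMIs, and lost its call without 30 °C replicate 2 (2.08) or 4 °C replicate 1 (1.73). In macrophages Fos was at 2043 and 2972 CPM against 3195 and 2759 CPM (0.19, adjusted p = 0.46).

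In regulatory T cells, 5 of 21 rose, with Egr3 (1.17), Jund, a subunit of the factor AP-1 (0.48), and Zfp36, which encodes a protein that speeds mRNA decay (0.46), as the largest, and Klf2 fell by 0.62 on the log2 scale (edgeR adjusted p = 0.0076, 0.00014, 0.0014 and 0.0086). In dendritic cells 4 of 19 rose and none fell. In ILC2-like cells, where no member passed, 3 of 20 rose and 1 fell: Egr3 (1.53) rose and Dusp1 fell by 0.56 (adjusted p = 0.0030 and 0.0016). The ILC2-like call of Egr3 was lost without 30 °C replicate 1 (0.77), and that of Dusp1 without 4 °C replicate 1 (−0.53).

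**Figure D5:**
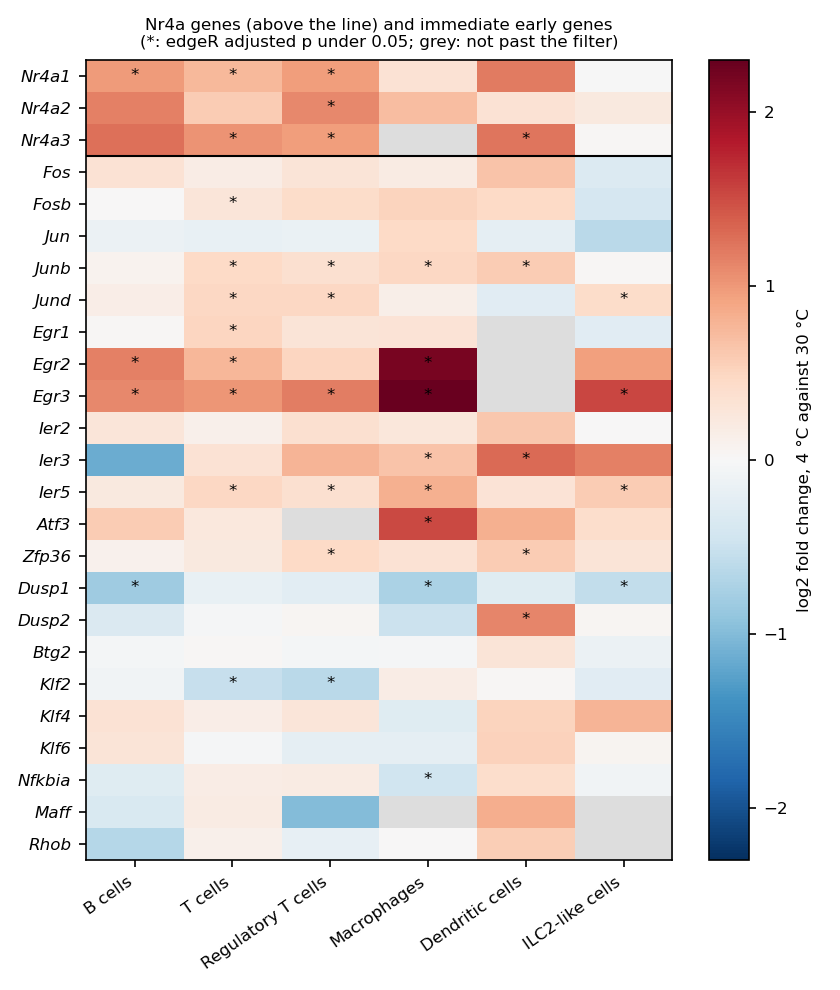
Fitted log2 fold change at 4 °C against 30 °C of the 3 Nr4a genes (above the line) and 22 immediate early genes in 6 cell types, as colour. An asterisk marks an edgeR adjusted p under 0.05 and grey a gene under the count filter. Egr3 carries an asterisk in each cell type but dendritic cells, where it was not tested, whereas Fos and Jun carry none.

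The lists of the antigen receptor arm and the cAMP arm differed in which genes passed. Both also hold genes that these signals induce, and their link to the changes of the members was not tested. Of 13 genes of the antigen receptor arm, 5 rose and none fell in T cells. Cd5, a surface gauge of receptor signalling, was among them, at 170 and 159 CPM against 237 and 252 CPM (0.51, edgeR adjusted p = 0.0036). In regulatory T cells 3 of 13 rose, led by Nfkbid, which encodes an atypical IκB protein (0.57, adjusted p = 0.0026), and in dendritic cells Nfkbid was the only one of 9 to pass (1.50), a call lost without 30 °C replicate 2 (1.22). In B cells Irf4, a factor gene induced by antigen receptor signals, was the only one of 13 (0.63), lost without 4 °C replicate 1 (0.56) or 2 (0.70). In macrophages Irf4 rose (1.72, adjusted p = 0.0011) and 1 other of the 10 genes fell, shares close to the 8.19% and 7.97% of all genes. In ILC2-like cells 2 rose and 1 fell of 10, the last being Il2ra, the interleukin-2 receptor alpha chain, which fell by 1.06 on the log2 scale (adjusted p = 5.7e-05).

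The cAMP arm had 16 genes. In macrophages 5 of 15 tested fell and 2 rose: Ptger2, a prostaglandin E2 receptor, fell by 1.92 on the log2 scale, Sik1, a kinase gene induced by cAMP, by 1.73 and Crem, itself a CREB family gene induced by cAMP, by 1.51 (edgeR adjusted p = 0.00018, 2.7e-05 and 0.0064). Sik1 was at 146 and 160 CPM in the thermoneutral and 46.5 and 50.7 CPM in the cold libraries, and Crem lost its call without 4 °C replicate 1 (−0.99). In B cells Crem rose (0.72) and Sik1 fell by 0.59, and both calls were lost without 4 °C replicate 1 (0.80 and −0.55) or 2 (0.63 and −0.64). In T cells and regulatory T cells only Ptger4, another prostaglandin E2 receptor, passed (0.76 and 0.51). Neither ILC2-like cells nor dendritic cells had a gene of this list past the threshold.

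Of 11 partners and regulators of NR4A proteins, 2 of 10 tested rose in T cells, Hdac7 and Rcor1, and none passed in B cells. The T cell call of Hdac7 was lost in 5 of 16 settings and that of Rcor1 in 13 of 16. Among 10 tested in macrophages, 1 rose and 1 fell, shares close to the 8.19% and 7.97% of all genes called higher and lower. The gene that rose was Mef2c, which encodes a MEF2 factor known to act on Nr4a genes (0.89, edgeR adjusted p = 0.00088). Mef2d, which encodes another MEF2 factor, fell, and its call was lost in 4 of 16 settings. Of 10 genes linked to NR4A activity in T cells, 2 passed in T cells, Lag3 and Ikzf2. Lag3, an inhibitory receptor, was at 30.5 and 38.2 CPM against 58.6 and 65.2 CPM (0.78, edgeR adjusted p = 0.0053). The call of Ikzf2 was lost in 11 of 16 settings. In ILC2-like cells 2 of 4 tested fell, among them Ctla4, another inhibitory receptor, by 1.68 on the log2 scale (adjusted p = 0.00027), and in macrophages Entpd1, an enzyme that breaks down extracellular ATP, fell by 0.70 (adjusted p = 0.0044). Of 55 calls of listed genes followed through all settings, 20 were never lost.

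Markers of other lineages were compared between temperatures beside these results. In T cells the 6 B cell markers summed to 56.6 to 62.2 CPM at 30 °C and 46.6 to 57.3 CPM at 4 °C, and the 8 macrophage markers to 12.2 to 12.7 against 11.5 to 16.1 CPM. In B cells the 6 dendritic cell markers summed to 42.4 to 46.5 CPM at 30 °C and 62.1 to 64.6 CPM at 4 °C, while the 8 macrophage markers summed to 13.6 to 18.8 against 16.7 to 22.2 CPM. Most of that dendritic cell marker sum in 30 °C replicate 1 was Il4i1 (32.0 CPM) and Flt3 (7.17 CPM). Ccl22 was at 2.06, Fscn1 at 0.652, Zbtb46 at 0.351 and Cacnb3 at 0.100 CPM there. In macrophages the dendritic cell markers summed to 23.4 to 25.4 against 37.1 to 55.9 CPM, and in dendritic cells the macrophage markers to 30.2 to 38.8 against 31.3 to 33.0 CPM. In ILC2-like cells the 6 T cell markers summed to 351 to 423 CPM at 30 °C and 429 to 547 CPM at 4 °C, and in 30 °C replicate 1 Cd3g alone was at 358 CPM. Each of these lists was above 0 in every library. Of single markers, 1 of the 8 macrophage markers was at 0 in dendritic cells and 1 of the 6 T cell markers in ILC2-like cells. The part of such transcripts in the changes of the members was not tested.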

How the data were processed

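The deposited files held raw UMI counts per gene and cell barcode for each library, which the authors made with Cell Ranger on the mm10 genome. The matrix headers name version 3.0.0 and the submitters' processing notes 3.1.0, with STAR and Seurat 4.2.0. Barcodes with at least 100 genes were kept, then genes found in at least 10 cells, then cells with 200 to 5000 genes and at most 7.5% mitochondrial UMIs, which kept 5191 to 5388 cells and 53423899 to 54933486 UMIs per library. Cells reaching 3 markers of a lineage were assigned to it, and those reaching several were left out, except that plasma markers took precedence over B and T markers over ILC2 markers. Scrublet marked 1.87% to 2.66% of cells, which were kept.

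UMIs were summed per library and cell type with at least 20 cells in each library and tested with edgeR 4.0.16 (quasi-likelihood, TMM, filterByExpr, R 4.3.3), and p-values were adjusted by Benjamini and Hochberg's method across every gene tested in a cell type. Differences between cell types and between their changes used the library as a factor. DESeq2 1.42.0, other scalings, filters, gates, thinning and each library left out served as alternatives. Cells were thinned with Python 3.11.15, and shares carry exact Clopper-Pearson 95% intervals from scipy 1.17.1, which cover counting error only. P-values of the cold comparison within a cell type measure the spread between pools of 4 mice. Those of levels between cell types, and of differences between their changes, measure the spread of cell type sums that remains once library effects are taken out. They come from the same 4 libraries and do not measure the spread between pools. The scripts were tested on simulated data.

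The members and gene lists were chosen with earlier results of these data known. Named genes are the members, for each list at most the 3 largest changes per direction among those past the threshold, and the 5 genes most correlated with each member, of which 1 is not reported here.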

Additional observations from a re-analysis of the deposited data

Results flagged for a closer look

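The change between 4 °C and 30 °C was compared between cell types in 12 tests. The change of Nr4a1 was lower in macrophages than in B cells (−0.62, edgeR adjusted p = 0.046), while its difference between macrophages and T cells did not pass (−0.36, adjusted p = 0.065). In ILC2-like cells the changes of Nr4a1 (−0.74, adjusted p = 0.0018) and Nr4a3 (−1.02, adjusted p = 0.045) were lower than in T cells. Each of these 3 calls was lost when some single library was left out. For Nr4a3 the fitted difference was −2.55 between macrophages and T cells and −2.85 between macrophages and B cells, but with 17 and 9 UMIs Nr4a3 was under the count filter in macrophages alone and entered these fits only through the other cell type, so no difference is drawn from them. Groups of 2 libraries were too small to look for libraries that stand apart.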

How the results depend on the processing

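Of 193 alternative values for the members in the main cell types and their differences, with all libraries kept, 164 kept direction and side of the threshold. In other cell types and listed genes 835 of 932 did, 85 lost and 10 gained a call and 2 turned. Calls were gained for Nr4a2 in B cells without a filter on low counts (1.16), for Nr4a3 in B cells with total UMIs (1.35), no filter (1.27), a 15% mitochondrial limit (1.24) and a gate of 2 markers (1.50), for Nr4a1 in macrophages with no filter (0.34) and thinned cells (0.69), and for Nr4a2 over all cells with DESeq2 (0.67). Over all cells, Nr4a1 was lost without the upper limit on genes (0.74) and Nr4a3 without that limit (1.03) and with thinned cells (1.05). The difference for Nr4a3 between ILC2-like and T cells was lost with no filter (−1.01). Fitted changes near 0 turned: Nr4a1 in ILC2-like cells with total UMIs (0.051), no filter (0.016), the 15% limit (0.0026), the gate of 2 (0.18) and thinning (0.087), Nr4a2 there without the upper limit (−0.045), Nr4a3 there with the 15% limit (−0.25), no upper limit (−0.013) and thinning (−0.31), Nr4a1 in Eomes+ T cells with the gate of 2 (−0.11) and thinning (−0.18), and the share of macrophages with Nr4a3 at 6000 UMIs (−0.36 points) and all UMIs (−1.95 points). The causes were not tested.

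Labels give both temperatures replicates 1 and 2, but nothing says that a number marks a shared batch, and deviations of same-numbered libraries correlated at 0.24, 0.19, 0.0015 and −0.022 in B cells, T cells, macrophages and ILC2-like cells. With the replicate number as a block, 87 of 95 results kept their call. Nr4a3 in B cells (1.25), Nr4a2 in T cells (0.59) and Nr4a1 in macrophages (0.35) passed, Nr4a1 in ILC2-like cells was 0.0037, and Nr4a1 (0.81) and Nr4a3 (1.07) over all cells did not pass.

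With 1 library left out at a time, 108 of 140 values for the members in the main cell types and their differences kept direction and side of the threshold, as did 236 of 324 in other cell types and listed genes, where 80 lost and 4 gained a call and 4 turned. In B cells the changes ranged over 0.93 to 1.04 for Nr4a1, 1.01 to 1.28 for Nr4a2 and 1.06 to 1.47 for Nr4a3. Nr4a2 ranged over 0.25 to 0.88 in T cells and 0.22 to 1.30 in macrophages. In ILC2-like cells Nr4a1 ranged over −0.33 to 0.31 and Nr4a3 over −0.066 to 0.14, and over all cells the ranges were 0.73 to 0.88, 0.55 to 0.79 and 0.98 to 1.17. Signs also turned for Nr4a1 in germinal centre B cells (−0.55 to 0.90), Nr4a3 in Eomes+ T cells (−0.051 to 1.47), and Nr4a2 in proliferating T cells (−0.076 to 1.20) and resident-marker macrophages (−0.13 to 0.77). Between macrophages and B cells the differences ranged over −0.80 to −0.45, −0.78 to 0.15 and −3.35 to −2.01 for Nr4a1, Nr4a2 and Nr4a3. For Nr4a3 they were −3.00 to −2.06 between macrophages and T cells, −0.082 to 0.48 between B and T cells and −1.24 to −0.69 between ILC2-like and T cells, where Nr4a1 had −0.93 to −0.48. Shares of macrophages moved by −0.043 to 1.98 points for Nr4a2 and −0.0022 to 0.59 points for Nr4a3.

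Counts of genes called moved with the setting: 161 to 1202 in B cells (main 252, block 598), 511 to 1416 in T cells (main 1147), 774 to 2051 in macrophages (main 1503), 93 to 483 in ILC2-like cells (main 387) and 6 to 848 over all cells (main 66, block 8). Leaving out cells with a shared barcode, chosen after seeing the data, kept 89 of 95. DESeq2 gave no adjusted p for 17 results, which are not counted as lost. Nr4a1 and Nr4a3 in T cells kept their calls throughout. Sums of few UMIs, above all Nr4a2 and Nr4a3 in B cells and Nr4a3 in macrophages, limit what could be detected.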

Other observations

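Cells outside the gates also carried the members. Cells with markers of more than 1 lineage, 4.96% of those kept, held 9.25% of the Nr4a1 UMIs, 11.3% of those of Nr4a2 and 7.99% of those of Nr4a3, beside 8.51% of all UMIs. Cells under every gate, 5.69% of those kept, held 4.62% of all UMIs and 6.10%, 11.3% and 7.54% of those of Nr4a1, Nr4a2 and Nr4a3. In germinal centre B cells Nr4a2 had no UMI at 30 °C in 63 and 248 cells, and 12 UMIs at 4 °C in 109 and 212 cells. Stromal cells, at 25 to 40 cells per library, had Nr4a1 at 58.9 and 81.9 CPM at 30 °C and at 203 and 84.2 CPM at 4 °C (log2 fold change 1.06, SE 0.48, edgeR adjusted p = 0.52).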
